A study of Mus musculus with 6 samples.

Results

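The genes described here are the stearoyl-CoA desaturase genes Scd1, Scd2 and Scd4 and the fatty acid synthesis genes Acaca, Acacb, Fasn, Elovl5, Elovl6, Fads1 and Fads2 in Ang-II-infused mouse hearts. They are the 10 rows of the count table, of 56748 genes in all, whose gene symbol is on that list. All 10 passed the filter on low counts. The list was chosen by the expression values of Scd4 in these same libraries, which had been seen to differ between the groups, so the values of the 10 genes in this comparison are a description and no test of them is given. Total RNA from hearts was sequenced in 6 libraries, 1 per mouse. In one group were 3 Pontin cTG mice, which carry a flag-tagged human Pontin cDNA behind the αMHC promoter, a promoter active in cardiomyocytes, on a C57Bl/6 background. The other group held 3 WT littermates without the transgene. All 6 mice were males, 10 weeks old when the infusion began, and all received Ang-II at 1.5 mg/kg BW/day from a mini-osmotic pump for 2 weeks before the hearts were taken. A heart without Ang-II was not analysed here, so the comparison asks how infused hearts with and without the transgene differed and says nothing of the response to Ang-II itself. How many founder lines the 3 transgenic mice came from is not given in the sources used here. Pontin cTG replicate 2 stood apart from the other libraries on the first principal component of all genes (50.9, against -23.1 to 16.2 in the other 5). For some genes the value without it is also given. The study's methods speak of a sample left out as an outlier in a principal component analysis, while another of its statements has no data left out. Whether any of these 6 libraries is that sample is not given in the sources used here.

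Fatty acids are built in the cytosol from acetyl-CoA. Acetyl-CoA carboxylase (Acaca in the cytosol, Acacb at the mitochondrial surface) makes malonyl-CoA, and fatty acid synthase (Fasn) uses it to assemble palmitate. In the heart, malonyl-CoA is best known for its other role, the inhibition of fatty acid entry into mitochondria. Palmitate is lengthened by elongases such as Elovl6, and the stearoyl-CoA desaturases place the first double bond in the chain, which yields palmitoleate and oleate. Fads1 and Fads2 add further double bonds to polyunsaturated chains, which Elovl5 lengthens. The mouse has 4 stearoyl-CoA desaturase genes side by side, and Scd4 is the one known chiefly from the heart. SREBP-1c (from Srebf1), the liver X receptors (Nr1h2, Nr1h3) and ChREBP (Mlxipl) are the textbook activators of these genes.

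The desaturase cluster lies on chromosome 19. In the GENCODE M21 annotation on GRCm38, Scd2 (ENSMUSG00000025203) is at chr19:44293674-44306864 on the plus strand, Scd4 (ENSMUSG00000050195) at chr19:44333092-44346743 on the plus strand and Scd1 (ENSMUSG00000037071) at chr19:44394455-44407879 on the minus strand. On the same chromosome, Fads2 is at chr19:10062765-10101746 and Fads1 at chr19:10182888-10196877. Elovl6 is at chr3:129532355-129638495, Acacb at chr5:114146535-114250761, Elovl5 at chr9:77917364-77984519, Acaca at chr11:84129672-84401651 and Fasn at chr11:120805846-120824547. Near-identical copies can share reads, so the transcripts were compared first. Over the aligned coding sequence, Scd4 was 85.6% identical to Scd1, 84.1% to Scd2 and 84.6% to Scd3. The longest stretch that Scd4 shared with Scd1 was 116 bases, within coding exon 4 at chr19:44338922-44339037 in Scd4 (plus strand) and chr19:44401771-44401886 in Scd1 (minus strand). It aligned to chr19:44299621-44299736 in Scd2 and chr19:44235783-44235898 in Scd3, both on the plus strand. That stretch is printed here for the 4 genes because it is where a read is least able to tell Scd4 from Scd1, and capitals mark a base that differs from Scd4.
Scd4: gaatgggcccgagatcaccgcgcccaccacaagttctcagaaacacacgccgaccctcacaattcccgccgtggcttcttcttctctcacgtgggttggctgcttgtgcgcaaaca
Scd1: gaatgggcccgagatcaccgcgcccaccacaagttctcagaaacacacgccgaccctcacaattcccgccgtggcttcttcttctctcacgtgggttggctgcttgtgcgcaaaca
Scd2: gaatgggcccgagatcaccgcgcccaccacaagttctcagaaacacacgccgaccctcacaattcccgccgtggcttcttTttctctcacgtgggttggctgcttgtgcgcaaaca
Scd3: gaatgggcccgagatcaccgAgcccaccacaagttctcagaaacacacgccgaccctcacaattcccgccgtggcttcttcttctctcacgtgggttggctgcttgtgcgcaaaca
Scd1 matched Scd4 at every base of the stretch, and Scd2 and Scd3 each had 1 mismatch. Such sharing was a small part of the transcript. Of the 3207 windows of 100 bases in the Scd4 transcript, 17 were found in Scd1 and 0 in Scd2 or Scd3. Of the windows of 50 bases, 2.58% were found in Scd1, 1.87% in Scd2 and 2.09% in Scd3.

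Scd4 was the member that stood apart between the groups. Its normalised counts, which are counts scaled to a common library size, were 497, 448 and 426 in the WT hearts and 210, 284 and 233 in the Pontin cTG hearts. The highest transgenic heart was thus below the lowest WT heart, a separation in this direction that 3.63% of the 13888 genes tested had. The mean was 457 ± 36.2 in WT and 242 ± 38.1 in Pontin cTG (SD, n = 3 each), which is 46.9% lower, or a log2 fold change of -0.91 (SE 0.15). Each of the 9 ratios of a transgenic to a WT heart, which restate that separation, was below 1, from 0.423 to 0.667. With each library left out in turn, the log2 fold change lay between -1.04 (Pontin cTG replicate 2 left out) and -0.81 (Pontin cTG replicate 1 left out). By the size of its fold change Scd4 ranked 91 of all genes tested. In bulk tissue, fewer cells of a type and less RNA per cell cannot be told apart. Scd4 had 215 to 451 raw counts per library, for which counting alone gives a coefficient of variation of 4.71% to 6.82%.

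Scd2, a desaturase abundant in brain and in many other tissues, lay between Scd4 and the rest. Its normalised counts were 449, 422 and 350 in WT and 286, 391 and 258 in Pontin cTG, with means of 407 ± 51.3 and 312 ± 70.2 (SD, n = 3 each). Replicate 2 of Pontin cTG fell among the WT values, so the groups overlapped. The log2 fold change was -0.38 (SE 0.18), -0.58 without that heart and -0.26 without Pontin cTG replicate 3. Scd1, the desaturase best known from liver and fat, had normalised counts of 228, 221 and 225 in WT and 231, 187 and 213 in Pontin cTG. These values overlapped, with a log2 fold change of -0.09 (SE 0.14), or -0.02 without Pontin cTG replicate 2. Scd3, which lies next to Scd2 and is not on the list, had 18 counts in all 6 libraries together and was not tested.

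**Figure D1:**
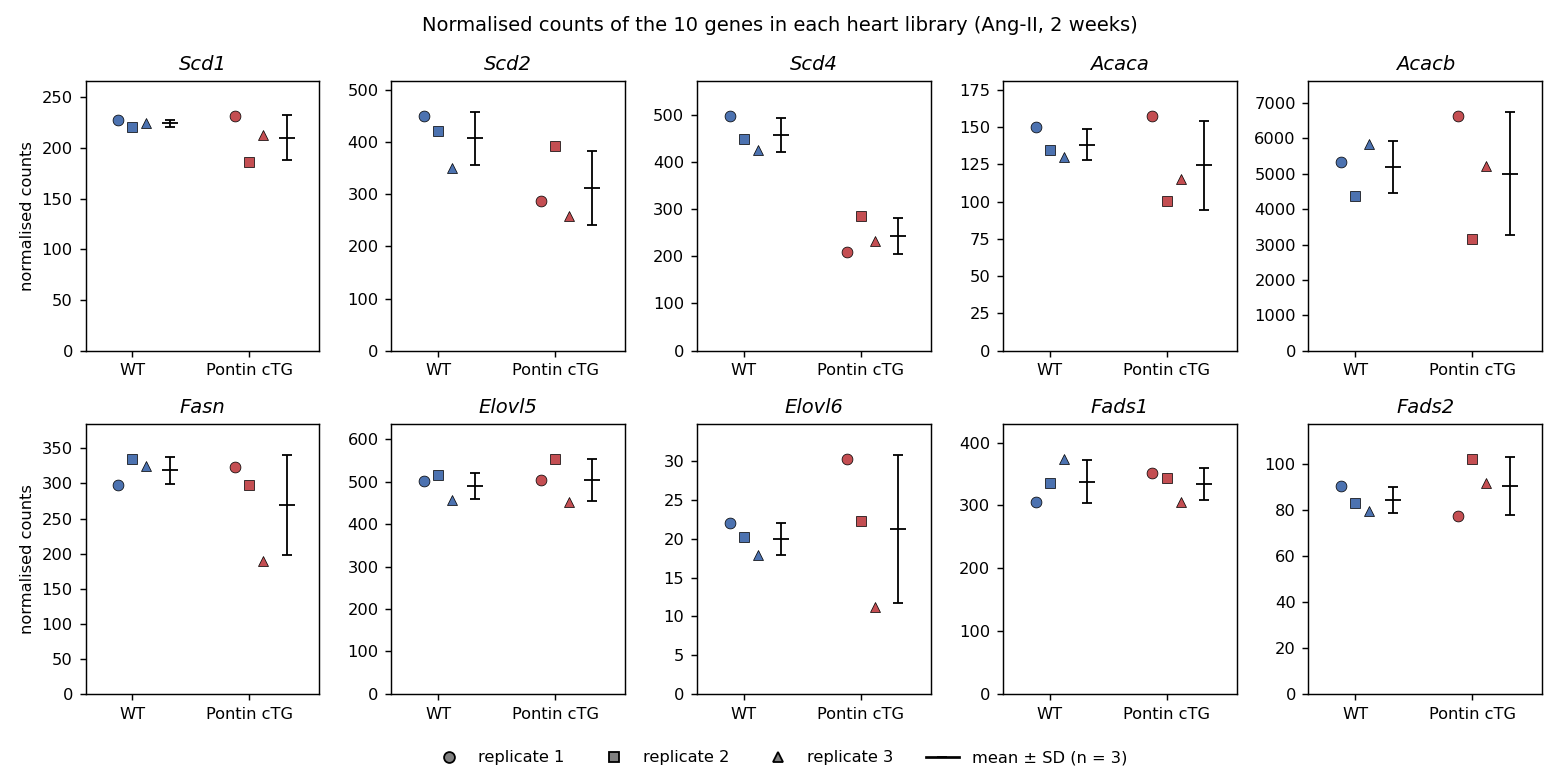
Normalised counts (vertical axes, each starting at 0) of the 10 genes in the 3 WT and 3 Pontin cTG hearts, 1 symbol per heart, with the mean ± SD of each group (n = 3) beside the points. Scd4 is the gene whose groups are apart (426 to 497 in the WT hearts, 210 to 284 in the transgenic hearts), and the groups of the other 9 genes overlap.

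The difference in Scd4 can also be read as a share of the desaturase pool, which restates it on another scale and is no separate difference. Levels per length, in CPM (counts in a library scaled to 1000000) divided by the table's gene length in kilobases, allow genes to be compared with each other. On that scale the summed level of Scd1, Scd2 and Scd4 was 18.5, 17.1 and 15.8 in WT and 11.0, 13.1 and 10.8 in Pontin cTG, so the groups did not overlap (17.2 ± 1.34 against 11.7 ± 1.28, SD, n = 3 each). Scd4 made up 50.6%, 49.3% and 50.7% of that sum in the WT hearts and 35.9%, 40.7% and 40.5% in the Pontin cTG hearts. The share of Scd4 was close to equal in the 3 WT hearts (50.2% ± 0.79) and lower in each transgenic heart (39.0% ± 2.75), a difference of -11.1 percentage points (-12.0 without Pontin cTG replicate 2). The shares of the other genes rise where that of Scd4 falls, since the 3 shares sum to a fixed total. Scd1 took 19.1% ± 1.39 of the sum in WT and 26.5% ± 5.22 in Pontin cTG, and Scd2 took 30.8% ± 1.78 and 34.4% ± 3.91. A share depends on no scaling between libraries, and without division by length the share of Scd4 was 42.0% in WT and 31.6% in Pontin cTG. The ratio of Scd4 to Scd1 per length was 2.64 ± 0.18 in WT and 1.52 ± 0.41 in Pontin cTG, and that of Scd4 to Scd2 was 1.64 ± 0.12 and 1.14 ± 0.14 (SD, n = 3 each).

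**Figure D2:**
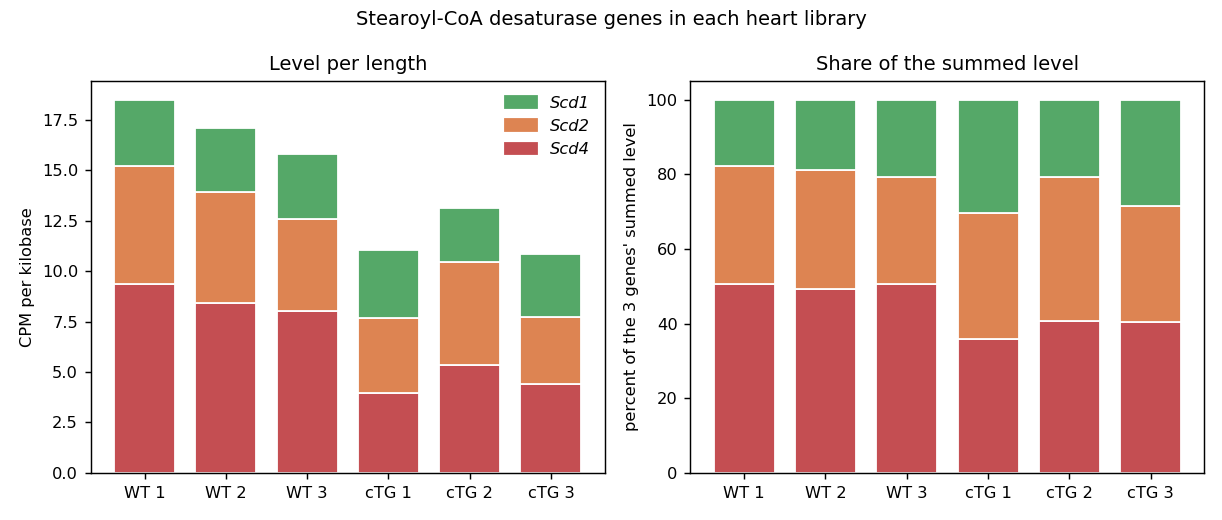
Stacked bars for each of the 6 hearts show the level of Scd1, Scd2 and Scd4 in CPM per kilobase (left) and the percent of their sum that each takes (right). The red Scd4 part takes 49.3% to 50.7% of the sum in the WT hearts and 35.9% to 40.7% in the Pontin cTG hearts.

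The genes that make malonyl-CoA and palmitate had overlapping groups. Acacb, the carboxylase of oxidative muscle, had normalised counts of 5331, 4386 and 5846 in WT and 6627, 3164 and 5212 in Pontin cTG. The transgenic hearts held both the highest and the lowest value, and the log2 fold change of -0.05 (SE 0.25) became 0.19 without Pontin cTG replicate 2. Acaca, the cytosolic form, had normalised counts of 150, 135 and 130 in WT and 157, 100 and 115 in Pontin cTG, with a log2 fold change of -0.15 (SE 0.20), or -0.02 without Pontin cTG replicate 2. In Pontin cTG replicate 2 both carboxylases were at their lowest. The ratio of Acacb to Acaca per length was 66.9 ± 11.6 in WT and 70.3 ± 12.7 in Pontin cTG, so the mitochondrial form outweighed the cytosolic form to a like extent in both groups. The size of the ratio depends on the lengths used. That of Acaca was 17074 bases, where its longest protein-coding transcript in GENCODE M21 has 9513, and that of Acacb was 9632, against 8788. Fasn had normalised counts of 297, 334 and 324 in WT and 323, 297 and 189 in Pontin cTG. Its log2 fold change of -0.24 (SE 0.20) rested on Pontin cTG replicate 3 and was -0.04 without that heart.

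Neither elongase differed by more than its spread. Elovl5 was among the steadiest of the 10 genes, with normalised counts of 501, 515 and 456 in WT and 505, 552 and 453 in Pontin cTG and a log2 fold change of 0.04 (SE 0.13). Elovl6, which carries palmitate to stearate, was the lowest of the 10, with 13 to 31 raw counts per library, for which counting alone gives a coefficient of variation of 18.0% to 27.7%. Its normalised counts were 22.0, 20.2 and 17.9 in WT and 30.3, 22.3 and 11.3 in Pontin cTG. The transgenic values lay on both sides of the WT values (log2 fold change 0.08, SE 0.41). The coefficient of variation among the transgenic hearts was 44.9%, above that of counting alone.

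The front-end desaturases, which lie close to each other on chromosome 19 but far from the Scd cluster, had overlapping groups as well. Fads1, the delta-5 desaturase, had normalised counts of 305, 335 and 373 in WT and 352, 344 and 305 in Pontin cTG, with a log2 fold change of -0.02 (SE 0.13). Fads2, the delta-6 desaturase, had 90.3, 83.0 and 79.4 in WT and 77.1, 102 and 91.8 in Pontin cTG, with a log2 fold change of 0.10 (SE 0.20), or 0.0065 without Pontin cTG replicate 2. In both genes the transgenic hearts lay on either side of the WT mean.

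**Figure D3:**
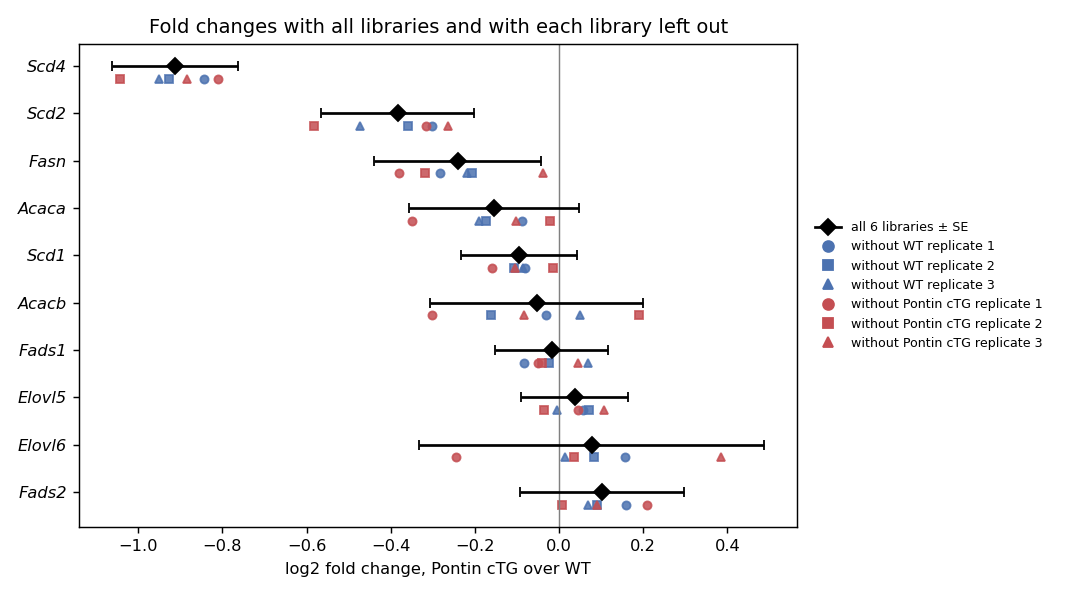
Log2 fold change of Pontin cTG over WT (horizontal axis) for the 10 genes with all 6 libraries (black diamonds, bars ± SE) and with each library left out in turn (coloured symbols). Scd4 stays between -1.04 and -0.81 whichever heart is left out, while Acacb, Elovl5, Elovl6 and Fads1 have symbols on both sides of 0.

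Taking the 10 genes as a list, 7 had a log2 fold change below 0 and 3 above, where 49.8% of all genes tested were below 0. The median of the list was -0.07, and it was 0.0013 over all genes. Without Scd4, 6 of the 9 remaining genes were below 0 with a median of -0.05. In 5 of the 10 genes the log2 fold change was smaller than 0.1 in either direction. One gene, Scd4, had groups that did not overlap with the transgenic hearts lower, and 0 had them higher. Over all genes tested, 3.63% did not overlap in the lower direction and 4.70% in the higher, 8.33% in all. The median coefficient of variation of the 10 genes was 7.76% among the WT hearts and 19.1% among the Pontin cTG hearts, beside 11.6% and 18.3% for all genes tested.

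Ordered by level per length, Scd4 stood after Elovl5 in the WT hearts and after Fads1 in the transgenic hearts. In WT hearts Acacb stood first at 38.2 ± 5.46 CPM per kilobase, followed by Elovl5 (9.89 ± 0.62), Scd4 (8.60 ± 0.68), Scd2 (5.29 ± 0.67), Fads1 (4.99 ± 0.51), Scd1 (3.26 ± 0.05), Fasn (2.07 ± 0.12), Fads2 (1.81 ± 0.12), Acaca (0.574 ± 0.044) and Elovl6 (0.221 ± 0.023). The neighbours in that order that overlapped between hearts were Elovl5 with Scd4, Scd2 with Fads1 and Fasn with Fads2. In Pontin cTG hearts Acacb (36.9 ± 12.8) and Elovl5 (10.1 ± 1.00) again came first, and Scd4 (4.57 ± 0.72) stood after Fads1 (4.93 ± 0.37) and before Scd2 (4.05 ± 0.91), and each of these overlapped its neighbour. Scd2 also overlapped Scd1 (3.05 ± 0.33) there, and Fads2 (1.95 ± 0.27) overlapped Fasn (1.75 ± 0.46). The sum of the 9 genes other than Acacb was 36.7 ± 1.44 in WT and 31.2 ± 2.93 in Pontin cTG. That sum holds Scd4 (8.60 and 4.57), so it in large part restates the difference in Scd4 and does not describe the whole list. Acacb, left out of it, had by itself a level of like size (38.2 and 36.9), with overlapping groups. Together the 10 genes took 0.0416% to 0.0618% of the counts of a library, the lowest share being that of Pontin cTG replicate 2.

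The genes around the Scd cluster lay on both sides of 0. Of the 5 tested genes nearest on each side (Dnmbp, Erlin1, Chuk, Cwf19l1 and Bloc1s2 before Scd2, and Sec31b, Ndufb8, Hif1an, Slf2 and Mrpl43 after Scd1), 0 passed a Benjamini-Hochberg adjusted p of 0.05 in the quasi-likelihood test of edgeR, and 0 had an unadjusted p under 0.05. Over all 13888 genes tested, 0% passed the adjusted p and 2.05% the unadjusted p, so such counts say little about the neighbours. Their log2 fold changes ran from -0.24 (Hif1an, SE 0.25) to 0.36 (Sec31b, SE 0.17). The 5 genes before the cluster lay between -0.09 and 0.05. Ndufb8, a subunit of respiratory complex I, was the neighbour whose groups did not overlap, and it was higher in the transgenic hearts (3031 ± 335 against 3713 ± 226 normalised counts, SD, n = 3 each, log2 fold change 0.29, SE 0.14). Over all genes tested, 4.70% were higher without overlap and 8.33% did not overlap in either direction.

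Genes that feed, regulate or use fatty acid synthesis were taken from 9 lists of 67 genes in all, of which 61 were tested. Of these, 0 rose and 0 fell at an adjusted p of 0.05 in edgeR's test, and 0 had an unadjusted p under 0.05 (3 without Pontin cTG replicate 2). DESeq2 and limma-voom also called 0 of them. Of all 13888 genes tested, 0% passed the adjusted p and 2.05% (285 genes) the unadjusted p. The log2 fold changes of the 61 genes were below 0 in 35 and above 0 in 26, with a median of -0.02 and a range from -0.45 to 0.30, so each was smaller in size than that of Scd4. In 4 of the 61 genes (6.56%) the groups did not overlap, Degs1 and Acss2 being lower and Mcat and Nr1h2 higher in the transgenic hearts, beside 8.33% of all genes tested.

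Of the 16 regulators of lipogenic transcription, 7 were below 0 and 9 above, with a median of 0.02. Srebf1, which encodes SREBP-1, had normalised counts of 432, 370 and 376 in WT and 390, 458 and 328 in Pontin cTG. Its log2 fold change was -0.002 (SE 0.15), or -0.13 without Pontin cTG replicate 2. Srebf2, its relative for cholesterol synthesis, had a log2 fold change of -0.03 (SE 0.14), and Insig1, a sterol-regulated gene that retains SREBPs in the endoplasmic reticulum, had 0.04 (SE 0.17). In these 3 genes the groups overlapped. Nr1h3, which encodes LXRα, had the largest value of the list, with 168 ± 20.6 normalised counts in the WT and 207 ± 21.8 in the Pontin cTG hearts (log2 fold change 0.30, SE 0.16), with overlapping groups. Nr1h2, which encodes LXRβ, had 533 ± 23.7 and 622 ± 46.7 (0.22, SE 0.12) without overlap. Mlxipl, which encodes ChREBP, had 273 ± 45.4 and 303 ± 52.1 (0.15, SE 0.18, or 0.02 without Pontin cTG replicate 2).

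Of the 7 genes that supply acetyl-CoA and NADPH, 6 were below 0, with a median of -0.08. Acly, which makes cytosolic acetyl-CoA from citrate, had a log2 fold change of 0.02 (SE 0.14). Me1, a source of NADPH, had -0.02 (SE 0.21), or 0.20 without Pontin cTG replicate 2. G6pdx, the first enzyme of the pentose phosphate pathway, had the largest value of the acetyl-CoA and NADPH list at -0.29 (SE 0.23). Acss2, which makes acetyl-CoA from acetate, had 602 ± 77.0 normalised counts in the WT and 508 ± 32.6 in the transgenic hearts and did not overlap (-0.25, SE 0.14). In the malonyl-CoA and mitochondrial synthesis list, 4 of 5 genes were above 0 with a median of 0.17. The exception was Oxsm, the mitochondrial ketoacyl synthase (-0.32, SE 0.25, or -0.05 without Pontin cTG replicate 2), which was at 190 in Pontin cTG replicate 2 and between 363 and 438 in the other hearts. Mcat, which loads malonyl groups for mitochondrial synthesis, had 437 ± 28.8 and 504 ± 62.3 normalised counts and did not overlap (0.21, SE 0.14).

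The members work with partners in the membrane of the endoplasmic reticulum. Electrons reach the desaturases through cytochrome b5 and its reductases, and of these 5 genes 2 were below 0, with Cyb5r3 largest at 0.10 (SE 0.20), or -0.17 without Pontin cTG replicate 2. Of the 6 partners of the elongation cycle 5 were below 0, with a median of -0.13. Hacd4, a hydroxyacyl-CoA dehydratase, was largest at -0.31 (SE 0.25), or -0.50 without Pontin cTG replicate 2. Among other desaturases and elongases 4 of 10 genes were tested, of which Fads6 was largest at 0.29 (SE 0.37), or 0.48 without Pontin cTG replicate 2. Degs1, the ceramide desaturase, had groups without overlap in that list, with 811 ± 24.8 normalised counts in the WT and 710 ± 27.6 in the transgenic hearts (-0.19, SE 0.12).

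In the lists that use or restrain the products, the genes of largest fold change were lowest in Pontin cTG replicate 2. Acsl6, an acyl-CoA synthetase, had normalised counts of 151, 119 and 180 in WT and 128, 61.6 and 140 in Pontin cTG (-0.45, SE 0.30, or -0.16 without that heart). Gpam, which starts glyceride synthesis, had 2457 normalised counts in Pontin cTG replicate 2 and from 4755 to 5043 in the other 5 hearts (-0.27, SE 0.25, or -0.01 without it). Prkaa2, the AMPK catalytic subunit of striated muscle, whose kinase phosphorylates acetyl-CoA carboxylase, had 1161 in that heart and from 2561 to 3644 in the others (-0.39, SE 0.33, or -0.06 without it). Without the heart that stood apart over all genes, each of these values was thus nearer to 0. Medians were -0.10 in the 5 acyl-CoA synthetases, 0.01 in the 7 genes of glyceride synthesis and storage and -0.13 in the 6 AMPK subunits. A pair of further lists was set beside these. Of the 19 genes tested for cholesterol synthesis and uptake, which SREBPs also drive, 13 were below 0 with a median of -0.06, and of the 15 for beta-oxidation 6 were below 0 with a median of 0.04. In both lists 0 genes passed the adjusted p in edgeR, and 1 and 0 had an unadjusted p under 0.05. The 1 was Hsd17b7, an enzyme of the later steps of cholesterol synthesis (-0.68, SE 0.15). Of all genes tested, 0% passed the adjusted p and 2.05% the unadjusted p. The groups did not overlap in 10.5% of the cholesterol genes (Hsd17b7 lower, Pmvk higher) and 6.67% of the beta-oxidation genes (Cpt1a lower). Over all genes tested that share was 8.33%.

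**Figure D4:**
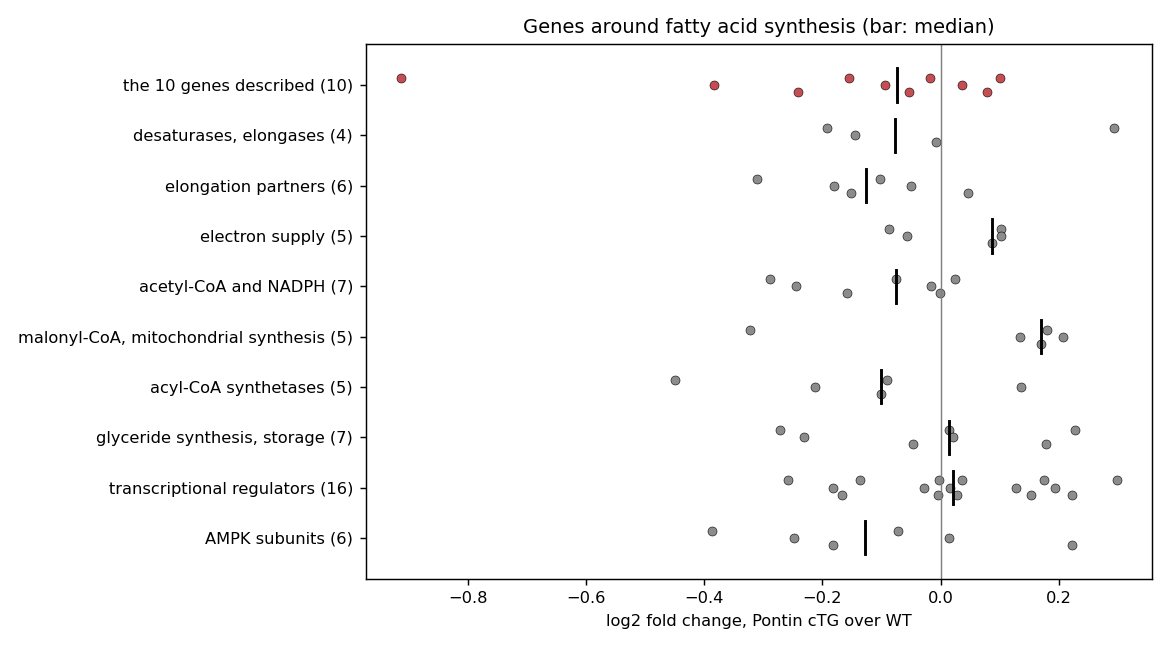
Log2 fold change of Pontin cTG over WT (horizontal axis) for each tested gene of the 10 described (red) and of the 9 lists around fatty acid synthesis (grey), with the number of genes in brackets and a bar at each median. Scd4, at -0.91, is the leftmost point, and the 61 grey points lie between -0.45 and 0.30.

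The profile of Scd4 over the 6 hearts was compared with that of 13542 genes, by the root mean square difference of log2 CPM after each gene was centred. The nearest were Gm8399 (0.202), Gm11353 (0.209), Ror1 (0.211), Tfrc (0.224) and Rbpj-ps3 (0.224). Ror1 is a receptor tyrosine kinase-like protein and Tfrc the transferrin receptor of iron uptake. Tfrc had normalised counts of 3444, 3544 and 2070 in WT and 1491, 1837 and 1373 in Pontin cTG. Among the members Scd2 was nearest to Scd4 (0.285), and the other 8 lay between 0.432 and 0.616. These differences are a description over 6 libraries, and a gene with the same split between groups must come out near.

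Promoter letters were searched in RefSeq windows of 250 bases before the start (GRCm38.p6), which matched 7 of the 10 members and left out Scd1, Scd2 and Fads1. On either strand, the sterol element TCACNCCAC was in 0 of the 7 and in 1.05% of 32851 windows. The E-box CACGTG was in Elovl5 and in 6.02% of windows, the NF-Y box CCAAT in Acacb, Elovl5 and Fasn and in 33.8%, and the Sp1 box GGGCGG in Fads2 and in 32.7%. None of these 4 motifs was in the window of Scd4, which says only that these letters are not there. An element for the liver X receptors had been planned as well and was not searched.

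Libraries held 12436822 to 16888124 counts, those of Pontin cTG being larger than those of WT, and 23.8% to 26.7% of the counts came from the mitochondrial genome. The mouse gene Ruvbl1, which encodes Pontin, had normalised counts of 216, 221 and 217 in WT and 250, 250 and 240 in Pontin cTG (log2 fold change 0.18, SE 0.12); reads of the human cDNA need not map to it. Cardiomyocyte markers were high in every heart (55953 to 62402 summed CPM in WT and 56652 to 61107 in Pontin cTG), while the liver marker Alb was at 0. Of the 10 cardiomyocyte markers, 1 (Actc1) was lower and 3 (Tnni3, Myl2 and Myl3) were higher in Pontin cTG without overlap. That is 40%, beside 8.33% of all genes tested. Their part in the value of Scd4 was not tested. The 4 atrial markers summed to 63.0 to 132 CPM in the WT and 27.5 to 551 in the transgenic hearts. Of these, Sln, Myl7 and Myl4 had 3, 11 and 153 counts in all libraries together, and Nppa, which stressed ventricles also express, had 7716 normalised counts in Pontin cTG replicate 2 and 360 to 1842 in the other hearts. Fat tissue is rich in Scd1 and Fasn. Of its markers, Adipoq had 4 counts in all 6 libraries together, Plin1 5, Lep 1 and Ucp1 0, while Fabp4 had 38205 and Plin4 12852. The tested markers, 2 white and 3 brown, all had log2 fold changes above 0. The 10 white adipocyte markers summed to 517 to 586 CPM in the WT and 562 to 755 in the transgenic hearts, nearly all from Fabp4 and Plin4. The 5 brown adipocyte markers summed to 264 to 340 and 345 to 428 without overlap, nearly all from Cox8b and Cidea, which the mouse heart also expresses, and their part in these results was not tested. Of the 7 macrophage markers 5 were below 0, with a median log2 fold change of -0.39. Csf1r was lower in the transgenic hearts without overlap (875 ± 175 and 668 ± 94.3 normalised counts, SD, n = 3 each). That is 14.3% of these markers, beside 8.33% of all genes tested. The 7 markers summed to 348 to 594 CPM in the WT and 293 to 430 in the transgenic hearts. The highest sum was that of WT replicate 2, and the part of these markers in the value of Scd4 was not tested. Without WT replicate 2 the log2 fold change of Scd4 was -0.93, which does not speak to that part, since macrophage content itself was not measured. Fibroblast markers summed to 1067 to 1851 and 1025 to 1686, and endothelial markers to 947 to 961 and 822 to 1209.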

How the data were processed

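RNA from 6 mouse hearts was measured by RNA-seq. The deposited values are whole-number read counts per gene that the authors did not normalise. The study's methods give Trimmomatic, STAR, mm10 and Gencode M25, while the submitters' processing notes name fastp, HISAT2, featureCounts, DESeq2 and GRCm39; which tools made the table is not given in the sources used here, nor is the strand setting. The table is not on GRCm38 (mm10) coordinates, since 1472 of 52073 shared genes, and 0 of the 10 members, had those of GENCODE M21. Positions and sequences printed are from GENCODE M21 on GRCm38, matched by Ensembl identifier. Genes overlapping members had 0 to 5 counts in all.

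Counts were filtered with filterByExpr (minimum count 10), scaled by TMM and fitted with glmQLFit (robust) and glmQLFTest in edgeR 4.0.16 (R 4.3.3), genotype being the only term, with Benjamini-Hochberg adjustment over 13888 genes. An SE is the log2 fold change divided by the square root of F. To normalise, each count was divided by its library's effective size (total times TMM factor) and brought back to the count scale with the geometric mean of the 6 effective sizes. The smallest p an exact permutation test of 3 against 3 can give is 0.1. The p-values set the group difference against the spread between these hearts, moderated over all genes, and take the hearts as independent. Whether hearts of a group shared a litter is not given, so that independence is not known. No 2 libraries agreed within sampling noise.

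The members, the lists and the alternatives were chosen with earlier results of these data known. Named genes are the members, in each pathway list the gene of largest change, a set group (Srebf1, Srebf2, Insig1, Nr1h3, Mlxipl, Acly, Me1 and Scd3), the 5 neighbours on each side, the 5 genes nearest to Scd4 in profile (mean log2 CPM of at least 0) and Ruvbl1. Degs1, Acss2, Mcat, Nr1h2, Pmvk and Cpt1a (no overlap), Hsd17b7 and marker genes were named after their values were seen. Alternatives were DESeq2 1.42.0, its size factors in edgeR, library size alone, other filters, mitochondrial genes left out, a replicate block, limma-voom (limma 3.58.1) with quality weights and each library left out.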

Additional observations from a re-analysis of the deposited data

How the results depend on the processing

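With 3 hearts per group, the edgeR test called 0 of 13888 genes (285 at an unadjusted p under 0.05). DESeq2 called 1 (Scd4, 217 at an unadjusted p under 0.05), no filter on low counts 3 (Npc1, Scd4 and Tfrc) and limma-voom with quality weights 3 (Egr1, Impact and Scd4). With 1 library left out the count ran from 0 to 3, the 3 (Egr1, Impact and Scd4) coming without Pontin cTG replicate 2. The cause was not tested, and Scd4 was chosen on this contrast, so these calls do not count as a test of it. The other 5 alternatives and the other 5 left-out libraries called 0. The 61 pathway genes gave 0 calls under each of 14 alternatives, and 0 to 3 had an unadjusted p under 0.05. Members below 0 numbered 6 to 8, and the members' median lay between -0.27 (Pontin cTG replicate 1 left out) and -0.03 (Pontin cTG replicate 2 left out). Over the 14 alternatives Scd4 ran from -1.08 to -0.81 on the log2 scale, and over the 7 run for it, its share of the desaturase sum differed by -12.0 to -9.55 points. Signs turned for Fads1 in 4, Acacb in 3, Elovl5 in 2 and Elovl6 and Fads2 in 1 of the 14. Library size alone moved the median of all genes to 0.03. Same-numbered libraries deviated together with correlations of 0.077, 0.43 and 0.19, and no shared animal or batch is named, so they were left unpaired. With the replicate number as a block, 0 genes were called (499 at an unadjusted p under 0.05) and Scd4 was at -0.92.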
